A study of Homo sapiens with 6 samples.

Results

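Heat shock proteins, J proteins and chaperonins are the chaperones that fold newly made proteins, hold unfolded ones and sort those that must be degraded. The genes were chosen by symbol alone, as protein-coding genes named HSPA, HSPB, HSP90, DNAJA, DNAJB, DNAJC or CCT with a number, together with TCP1, HSPD1, HSPE1 and HSPH1. The rule gave 84 gene identifiers with 83 symbols, of 35385 genes with a transcript in the files. HSPA14 holds 2 of the identifiers. A total of 70 members had enough reads to be tested, of 13279 genes tested in all, and the rule uses no measured value.

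The HSP70 proteins bind short hydrophobic stretches of a client and let them go in a cycle driven by ATP. A J protein brings the client and triggers ATP hydrolysis, and an exchange factor, such as a member of the HSP110 or BAG family, releases the nucleotide and resets the cycle. HSP90 takes over partly folded kinases and receptors, while the barrel-shaped chaperonins enclose whole proteins, TRiC in the cytosol and HSPD1 with its lid HSPE1 in mitochondria. Each compartment has its own set, and the transcription factor HSF1 induces many of the cytosolic genes under heat and other proteotoxic stress. In the endoplasmic reticulum, the unfolded protein response raises HSPA5 and its J proteins instead.

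The cells were EoL-1, a human line established from an eosinophilic leukaemia and grown here in RPMI 1640 medium with fetal bovine serum. Polyadenylated RNA was sequenced in 3 libraries of ATF3 knockout cells, edited with CRISPR/Cas9 per the labels, and in 3 libraries of wild-type EoL-1 cells. ATF3 is a bZIP transcription factor that many stresses induce. The labels give no position of the edit and do not say whether the knockout cells were 1 clone or whether replicates were separate cultures, so a p-value here speaks only of the spread among the libraries, which may be technical. In bulk RNA, fewer cells of a kind and less RNA per cell cannot be told apart.

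The libraries held between 26766103 and 30117281 estimated reads. ATF3 itself had 5.45, 8.09 and 4.39 CPM (estimated reads scaled to library size) in the ATF3 knockout libraries, against 22.2, 15.8 and 22.4 CPM in the wild-type libraries. Every knockout library lay below every wild-type library, with a log2 fold change of -1.75 (SE 0.25, edgeR adjusted p = 0.00923, or 0.051 without wild-type replicate 1), and mRNA of the gene remained in all 3. Of 8 eosinophil markers, CLC and IL5RA were at 0 in every library, and 2 (RNASE2 and RNASE3) were called higher in knockout. The summed eosinophil markers came to between 113 and 177 CPM in knockout and between 35.5 and 50.3 CPM in wild type. Nearly all of this was RNASE2 and RNASE3, and the other 6 had too few reads to be tested. Of 3 leukocyte markers, CD33 and SPI1 were called higher. PTPRC was not called, with 287.1, 355.8 and 166.6 CPM in knockout, against 367.3, 362.5 and 362.7 CPM in wild type. Lymphocyte markers summed to at most 0.411 CPM in knockout and 0.409 CPM in wild type, and epithelial markers to at most 0.0998 CPM in knockout and 0.105 CPM in wild type. Of 4 endothelial and stromal markers, PECAM1, which leukocytes also carry, was called higher, and CDH5 was at 0. Wild-type replicate 2 stood apart from the other wild-type libraries and nearer to knockout, at -11.9 on the first principal component of log2 CPM over all tested genes. The knockout libraries lay at 29.4, 34.8 and 20.9 and wild-type replicates 1 and 3 at -37.0 and -36.3. The part of these differences in the results below was not tested.

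Of the 70 tested members, 19 (27.1%) were called, meaning an edgeR adjusted p of at most 0.05 over all tested genes, against 21.7% of all tested genes. A total of 9 members (12.9%) were higher in knockout, against 11.7% of all genes, and 10 (14.3%) were lower, against 9.96% of all genes. Every knockout library lay above or below every wild-type library for 36 members (51.4%), against 43.8% of all genes. The shares of called members were thus near those of all genes. The median log2 fold change of the tested members was -0.03, and that of all tested genes was 0.0056. Of the called members, 6 differed by more than 2-fold and 9 by less than 1.5-fold. Many calls were lost when a single library was left out, among members as among all genes. Without wild-type replicate 1, DNAJC28 and HSPA9 kept theirs and the other 17 had edgeR adjusted p-values between 0.0546 and 0.153. That refit called 173 of all genes higher and 116 lower, against 1553 and 1322 in the full fit. Without wild-type replicate 3, DNAJC28, HSPA9, HSPA13 and HSPA1B kept theirs, and 301 of all genes were called higher and 214 lower. In every refit that tested them, the 19 members held their direction.

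**Figure D1:**
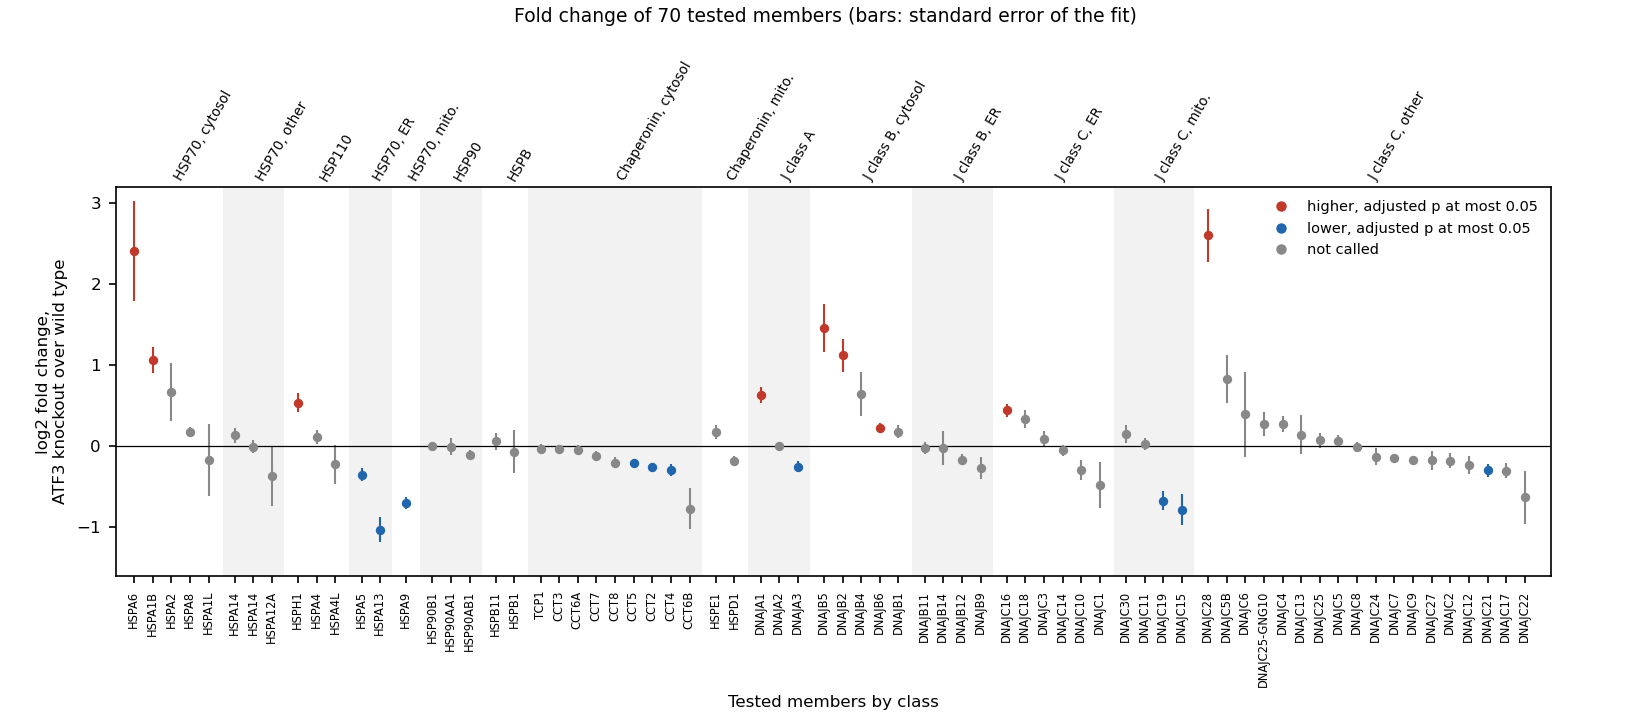
Log2 fold change, ATF3 knockout over wild type, of the 70 tested members, ordered by class and compartment on the horizontal axis. Points are edgeR estimates, bars their standard errors, and colour marks an adjusted p of at most 0.05. The higher calls sit among cytosolic HSP70, HSP110 and J proteins and 2 further J proteins, and the lower calls among HSP70 of the endoplasmic reticulum and mitochondria, the cytosolic chaperonin and mitochondrial J proteins, with DNAJC21 apart from these; HSPA14 appears once for each of its 2 identifiers.

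Among the cytosolic HSP70 genes, the stress-inducible HSPA1B and HSPA6 were higher in knockout, the second not when summed with its pseudogene copy, while HSPA8, the constitutive form, differed by less and missed the threshold. HSPA1B (ENSG00000204388.6, chr6:31827735-31830255, plus strand of GRCh38) had 50.9, 52.5 and 76.8 CPM in ATF3 knockout replicates 1 to 3, against 26.7, 30.3 and 29.1 CPM in wild-type replicates 1 to 3. Replicate 3 of knockout was the highest library, and the groups did not overlap. HSPA1B thus had 60.1 ± 14.5 CPM in knockout and 28.7 ± 1.86 CPM in wild type (SD, n = 3 each), with a log2 fold change of 1.07 (SE 0.16, edgeR adjusted p = 0.0104).

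HSPA1A and HSPA1B encode nearly the same protein from neighbouring genes, so reads can hardly be divided between them. HSPA1A was listed at 7.50 reads in knockout replicate 1 and at 0 in the other libraries. All reads of HSPA1B lay on 4 transcripts that GENCODE names but places outside the primary assembly, and the transcripts placed on the primary assembly were at 0. With both genes summed, the libraries held 1372, 1486 and 2309 reads in knockout, against 762, 889 and 821 reads in wild type. The sum gave a log2 fold change of 1.07 (SE 0.16, edgeR adjusted p = 0.0103), the same as HSPA1B by itself. Without transcripts outside the primary assembly, neither gene could be tested.

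**Figure D2:**
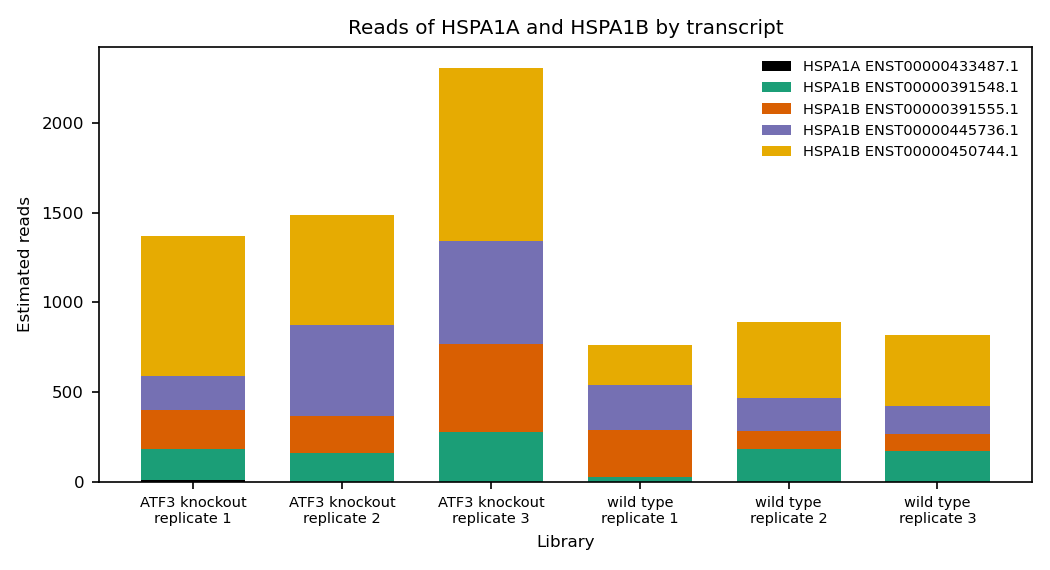
Estimated reads of HSPA1A and HSPA1B in each library, stacked by the transcript that holds them, with the 3 ATF3 knockout libraries left of the 3 wild-type libraries. Totals of 1372 to 2309 reads in knockout stand above totals of 762 to 889 in wild type, while the division between transcripts varies from library to library within each group.

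HSPA6 (ENSG00000173110.7, chr1:161524540-161526910, plus strand), which in humans is induced almost only by stress, had 2.99, 1.24 and 0.831 CPM in knockout, against 0.140, 0.477 and 0.319 CPM in wild type. These values rest on 24.9 to 79.6 reads per knockout library and 3.84 to 13.6 per wild-type library, and the groups did not overlap. The log2 fold change was 2.41 (SE 0.62, edgeR adjusted p = 0.0345). Without knockout replicate 1, the highest library, the log2 fold change was 1.71 (edgeR adjusted p = 0.0822), a 3.27-fold rather than a 5.31-fold difference. Reads can also fall to HSPA7, a near-identical pseudogene beside it, which was listed at 136, 27.2 and 33.1 reads in knockout, against 4.16, 39.4 and 6.40 reads in wild type. Both copies summed to 216, 62 and 58 reads in knockout, against 8, 53 and 15 reads in wild type, so that wild-type replicate 2 came close to knockout replicates 2 and 3. The sum was not called (log2 fold change 2.21, SE 0.81, edgeR adjusted p = 0.094), and the call for HSPA6 therefore depends on how reads are divided between the copies.

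HSPA8 was the most abundant member by TPM (the authors' length-scaled abundance), with 1899, 1911 and 1913 TPM in knockout, against 1586, 1598 and 1669 TPM in wild type. The groups did not overlap, and the log2 fold change of its reads was 0.18 (SE 0.06, edgeR adjusted p = 0.0666). HSPA2 and HSPA1L, low in both groups, had log2 fold changes of 0.67 and -0.16 (edgeR adjusted p = 0.22 and 0.823). The 5 tested cytosolic HSP70 genes together summed to 1922, 1934 and 1944 TPM in knockout, against 1597, 1610 and 1681 TPM in wild type, nearly all of it HSPA8.

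HSPH1, a nucleotide exchange factor of the HSP110 family, had 212, 241 and 182 CPM in knockout, against 130.3, 157 and 149 CPM in wild type. The groups did not overlap, and the log2 fold change was 0.54 (SE 0.12, edgeR adjusted p = 0.0222). In every library, more HSPH1 reads lay on transcripts annotated for nonsense-mediated decay than on coding transcripts. The decay class held 52.7 to 53.3% in knockout and 49.0 to 52.5% in wild type. Coding transcripts held 43.2 to 44.7% in knockout and 46.1 to 48.5% in wild type. Neither share overlapped between the groups, but the division between transcripts is an estimate and was not tested. The HSPH1 relatives HSPA4 and HSPA4L were not called, with log2 fold changes of 0.11 and -0.22 (edgeR adjusted p = 0.37 and 0.55). HSPA4 had 105, 122 and 95.5 TPM in knockout and 101, 101 and 93.4 TPM in wild type, with overlapping groups.

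Of the 7 tested J proteins of class A and B in the cytosol and nucleus, the main partners of HSPA8 and HSPA1B, 4 were called higher by edgeR, against 11.7% of all tested genes, and 4 by DESeq2, against 15.4%. The other 3 did not pass; all 7 log2 fold changes were positive, as were 6730 of the 13279 over all tested genes. DNAJA1 (ENSG00000086061.15, chr9:33025211-33039907, plus strand), a farnesylated general partner of HSP70, had 399, 409 and 367 CPM in knockout, against 224, 288 and 245 CPM in wild type. It was the most abundant of the called J proteins and its groups stood well apart (log2 fold change 0.64, SE 0.10, edgeR adjusted p = 0.0108). Its close relative DNAJA2 had nearly equal means, of 92.6 ± 2.13 CPM in knockout and 92.2 ± 1.21 CPM in wild type (SD, n = 3 each). For DNAJA2 the log2 fold change was 0.01 (SE 0.05, edgeR adjusted p = 0.953).

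DNAJB2, a J protein with ubiquitin-interacting motifs, had 6.57, 6.64 and 7.18 CPM in knockout, against 2.31, 3.75 and 3.29 CPM in wild type. DNAJB5 had 3.32, 3.71 and 2.83 CPM in knockout, against 1.05, 1.67 and 0.850 CPM in wild type. Both were low in abundance, yet neither overlapped between the groups, with log2 fold changes of 1.12 (SE 0.21, edgeR adjusted p = 0.0143) for DNAJB2 and 1.46 (SE 0.29, edgeR adjusted p = 0.0178) for DNAJB5. DNAJB6, which keeps polyglutamine proteins from aggregating, had 212, 203 and 213 CPM in knockout, against 175, 187 and 173 CPM in wild type. That difference was small but also without overlap (log2 fold change 0.23, SE 0.06, edgeR adjusted p = 0.035). DNAJB1, the heat-inducible partner of HSPA1A, had 92.7, 98.9 and 112 CPM in knockout, against 89.0, 88.7 and 90.6 CPM in wild type. Its groups did not overlap, but its log2 fold change of 0.18 (SE 0.08, edgeR adjusted p = 0.151) missed the threshold, as did that of DNAJB4 at 0.64 (SE 0.27, edgeR adjusted p = 0.134).

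**Figure D3:**
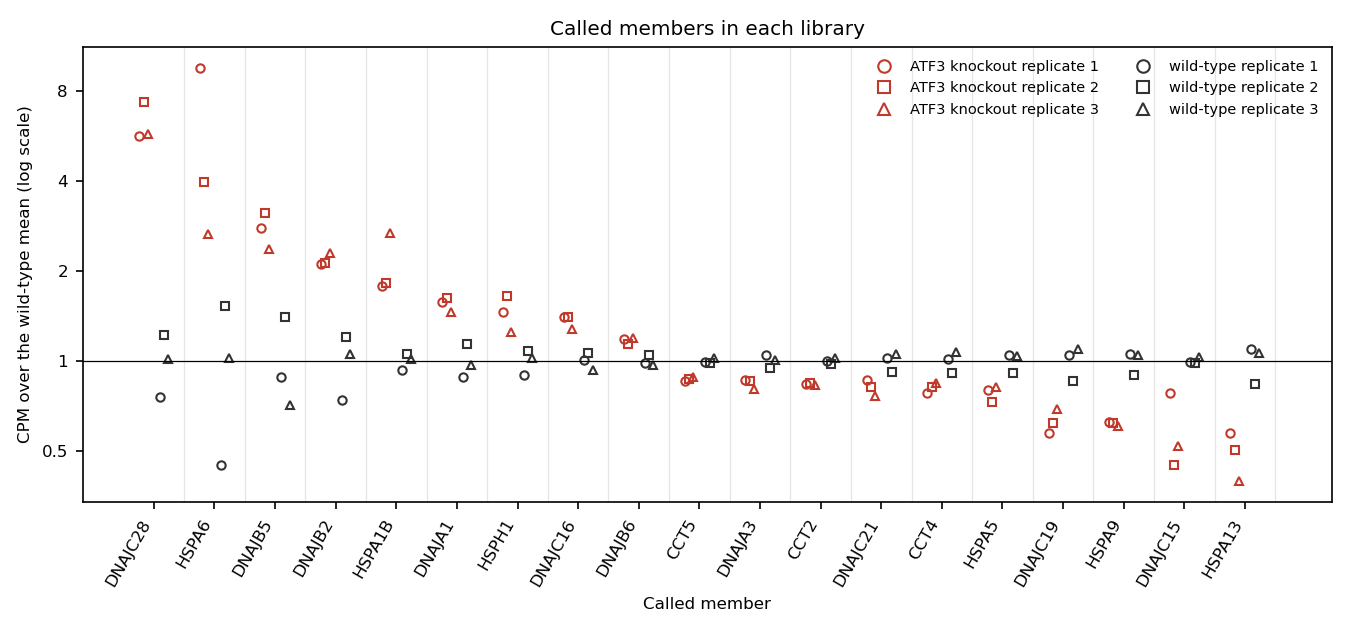
CPM of the 19 called members in each library, divided by the gene's wild-type mean and drawn on a log scale, with ATF3 knockout left of wild type for each gene. No gene overlaps between the groups, and for all 19 the wild-type library nearest to the knockout mean is replicate 2 (square).

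Promoter windows were taken from RefSeq (GRCh38.p14) to show the sequence around the transcription start of some called members. They ran from 250 bases before to 50 bases after the start. They were searched for a pair of inverted heat shock units, GAANNTTC or TTCNNGAA, the sequence that HSF1 recognises in repeats; each form is its own reverse complement, and pairs can overlap by sharing a unit. HSPA6, HSPA1B and DNAJA1 are shown as higher members with a match and HSPA9 as a lower one, 5′ to 3′ on the strand of the gene, with matches in capitals.
HSPA6, chr1:161524290-161524589, plus strand: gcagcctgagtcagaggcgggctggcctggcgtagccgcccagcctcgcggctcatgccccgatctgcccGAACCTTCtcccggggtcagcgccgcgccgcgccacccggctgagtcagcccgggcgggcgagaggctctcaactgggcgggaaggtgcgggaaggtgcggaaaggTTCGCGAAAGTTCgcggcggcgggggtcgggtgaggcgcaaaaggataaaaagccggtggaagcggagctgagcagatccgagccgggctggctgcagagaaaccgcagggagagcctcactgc
HSPA1B, chr6:31827488-31827787, plus strand: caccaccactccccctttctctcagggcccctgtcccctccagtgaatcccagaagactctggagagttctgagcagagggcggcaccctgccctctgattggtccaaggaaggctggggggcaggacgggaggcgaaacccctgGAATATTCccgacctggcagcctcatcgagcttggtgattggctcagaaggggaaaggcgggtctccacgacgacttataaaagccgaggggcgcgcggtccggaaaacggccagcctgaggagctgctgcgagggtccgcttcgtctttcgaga
DNAJA1, chr9:33025023-33025322, plus strand: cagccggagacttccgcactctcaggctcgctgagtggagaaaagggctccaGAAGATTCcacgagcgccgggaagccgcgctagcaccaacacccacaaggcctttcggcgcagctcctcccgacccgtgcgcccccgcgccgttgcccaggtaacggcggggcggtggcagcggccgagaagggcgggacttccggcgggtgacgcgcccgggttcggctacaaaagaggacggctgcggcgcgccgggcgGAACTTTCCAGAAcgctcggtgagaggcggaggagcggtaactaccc
HSPA9, chr5:138575352-138575651, minus strand: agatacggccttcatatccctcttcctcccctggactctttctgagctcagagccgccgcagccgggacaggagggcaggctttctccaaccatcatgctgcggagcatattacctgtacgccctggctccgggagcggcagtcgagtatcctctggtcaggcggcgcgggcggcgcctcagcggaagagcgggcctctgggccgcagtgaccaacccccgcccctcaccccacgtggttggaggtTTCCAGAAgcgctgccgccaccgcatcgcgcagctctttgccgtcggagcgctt
HSPA6 and DNAJA1 each held 3 pairs, 2 of which overlapped, and HSPA1B and HSPA9 held 1 each. The overlapping pairs of DNAJA1 lay after the transcription start, and the pair of HSPA9 ran across it. The HSPH1 window held none. HSPA8, which was not called, held 4.

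Across members, 74 of the 83 symbols had 95 windows in the RefSeq table, of 35116 windows in all. A heat shock pair lay in 27 of the 95 (28.4%), against 13.5% of all windows. It lay in 4 of 9 windows of higher members (44.4%), 4 of 14 of lower members (28.6%), 13 of 58 of tested members without a call (22.4%) and 6 of 14 of untested members (42.9%). For factors of the ATF and AP-1 family, TGATGNAAT lay in 1 of the 95 windows (1.05%, against 0.991% of all windows) and TGACGTCA in 3 (3.16%, against 1.85%), searched on both strands, and none of these 4 windows belonged to a called member. TGANTCA lay in 5 windows (5.26%, against 7.71% of all windows), among them those of HSPA6, HSPA5 and DNAJC15. CCAAT, on either strand, lay in 37 windows (38.9%, against 34.6%), with 5 copies each in those of HSPA5 and HSP90B1. A match is a description of the letters in the window and says nothing of binding.

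In the endoplasmic reticulum, both HSP70 genes were lower in knockout. HSPA13 (ENSG00000155304.5, chr21:14371115-14383484, minus strand), a truncated HSP70 of microsomes, had 59.7, 52.2 and 41.1 CPM in knockout, against 114, 87.1 and 111 CPM in wild type. Wild-type replicate 2 was the lowest wild-type library and still lay above all 3 knockout libraries (log2 fold change -1.03, SE 0.16, edgeR adjusted p = 0.0104). HSPA5 or BiP, the main chaperone of that compartment and a target of the unfolded protein response, had 495, 453 and 509 CPM in knockout, against 649.7, 564 and 646 CPM in wild type. The difference was smaller but without overlap (log2 fold change -0.35, SE 0.08, edgeR adjusted p = 0.0241).

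The J proteins of the endoplasmic reticulum mostly did not pass the test. All 4 class B J proteins of the compartment (DNAJB9, DNAJB11, DNAJB12 and DNAJB14) had negative log2 fold changes, between -0.27 and -0.02. None was called by edgeR or DESeq2, and 1 had an unadjusted edgeR p under 0.05, as did 17.7% of all genes on the lower side and 19.9% on the higher side. DNAJB11, the most abundant of them, had 34.6, 34.2 and 37.8 TPM in knockout and 34.4, 33.6 and 35.3 TPM in wild type. DNAJC10, a disulfide reductase with a J domain, had 128, 116 and 94.5 CPM in knockout, against 149, 130.2 and 136 CPM in wild type, without overlap (log2 fold change -0.29, SE 0.12, edgeR adjusted p = 0.119). Of the 6 class C J proteins of the compartment, DNAJC10 included, 3 had negative and 3 positive log2 fold changes. DNAJC18 was higher without overlap but not called (log2 fold change 0.34, SE 0.11, edgeR adjusted p = 0.0645). DNAJC16, a membrane J protein of the endoplasmic reticulum, was also higher, with 32.0, 31.9 and 29.2 CPM in knockout, against 22.9, 24.2 and 21.3 CPM in wild type. It was the 1 higher call in this compartment (log2 fold change 0.45, SE 0.08, edgeR adjusted p = 0.0139). HSP90B1, the HSP90 of the compartment, had a mean of 344 CPM in each group and a log2 fold change that rounds to 0.00 (-0.00049, SE 0.06, edgeR adjusted p = 0.997). Of the 13 tested members of this compartment, 1 was thus higher and 2 were lower, against 11.7% and 9.96% of all tested genes.

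In mitochondria, 4 of the 8 tested members assigned to that compartment were lower by edgeR, against 9.96% of all tested genes, and 0 higher. DESeq2 called 5 lower, against 14.4% of all genes, and 0 higher. At an unadjusted edgeR p under 0.05, which 17.7% of all genes reached on the lower side, 5 were lower and 0 higher. These counts depend on the class list, which left the remaining class C J proteins, the higher DNAJC28 among them, outside this compartment. HSPA9 or mortalin, the matrix HSP70 that pulls imported proteins in and folds them (ENSG00000113013.13, chr5:138553756-138575724, minus strand), had 501, 499 and 486 CPM in knockout, against 848, 722 and 839.9 CPM in wild type. The knockout libraries lay close together and far below the lowest wild-type library. HSPA9 had the smallest p of the members (log2 fold change -0.70, SE 0.07, edgeR adjusted p = 0.00776) and kept its call in all 16 refits. Per length it was the third most abundant member, with 474 ± 8.15 TPM in knockout and 703 ± 64.6 TPM in wild type (SD, n = 3 each). That rank depends on how reads are divided between transcripts of unequal length. In knockout replicate 1, a transcript of 4319 bases held 54.9% of the HSPA9 reads but 61.9 of 466 TPM. By reads, HSP90AA1 and HSPD1 also lay above HSPA9. Their means were 1097 and 720.5 CPM in knockout, against 495 CPM for HSPA9, and 1099.5 and 816 CPM in wild type, against 803 CPM.

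Most HSPA9 reads were assigned to transcripts not annotated as coding. Coding transcripts held between 1.65 and 2.09% of the gene's reads in knockout and between 1.68 and 3.21% in wild type, and the rest lay on transcripts of the nonsense-mediated decay class or with retained introns. The full-length coding transcript, ENST00000297185.9, was listed at 0, 43.0 and 0 reads in knockout, against 363, 0 and 321 reads in wild type. The division between transcripts is an estimate by Salmon, and the decay class held 58.6 to 60.4% of the reads in knockout and 58.9 to 59.9% in wild type, with overlapping groups.

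Beside HSPA9, its J protein partners DNAJA3, DNAJC15 and DNAJC19 were lower. DNAJC19, a subunit of the import motor on the inner membrane, had 13.7, 14.8 and 16.4 CPM in knockout, against 24.9, 20.4 and 26.02 CPM in wild type. DNAJC15, its paralog, had 16.5, 9.50 and 11.01 CPM in knockout, against 21.0, 20.8 and 21.8 CPM in wild type. Both were without overlap, with log2 fold changes of -0.67 (SE 0.12, edgeR adjusted p = 0.0137) for DNAJC19 and -0.78 (SE 0.20, edgeR adjusted p = 0.0333) for DNAJC15. The spread of DNAJC15 was wider in knockout, where replicate 1 lay nearest to wild type. DNAJA3, the general J protein of the matrix, had 86.6, 85.8 and 80.5 CPM in knockout, against 105, 94.6 and 101 CPM in wild type. Its log2 fold change was -0.25 (SE 0.07, edgeR adjusted p = 0.0381), and its adjusted p was 0.0738 on the primary assembly annotation alone, where part of its reads are missing.

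The mitochondrial chaperonin was not called by edgeR, while DESeq2 called 1 of its genes lower. HSPD1, the barrel subunit, had 703, 776 and 683 CPM in knockout, against 802, 816 and 828 CPM in wild type, without overlap (log2 fold change -0.18, SE 0.06, edgeR adjusted p = 0.0896). HSPE1, its lid, had 104, 117 and 107 CPM in knockout, against 91.2, 106 and 93.3 CPM in wild type, with overlapping groups (log2 fold change 0.18, SE 0.08, edgeR adjusted p = 0.163). The genes share 281 exon bases on opposite strands, and HSPE1 shares 192 with the read-through gene HSPE1-MOB4; HSPE1 and the read-through gene together gave a log2 ratio of 0.17. DNAJC11, a partner of the complex that shapes the cristae, and DNAJC30 had log2 fold changes of 0.03 and 0.15 (edgeR adjusted p = 0.788 and 0.359).

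**Figure D4:**
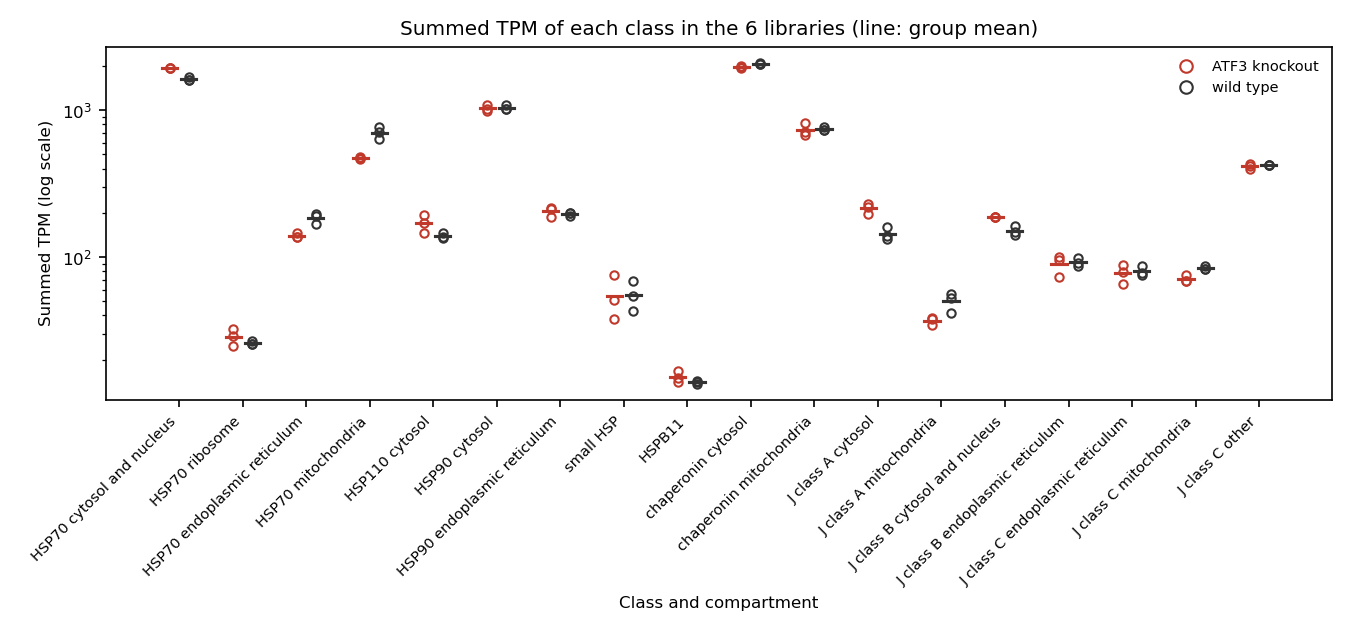
Summed TPM of each class and compartment in the 6 libraries, on a log scale, with ATF3 knockout left of wild type and a line at each group mean. Mitochondrial HSP70 lies lower in knockout, at 466 to 482 TPM against 636 to 764 TPM in wild type, as does HSP70 of the endoplasmic reticulum. Sums of cytosolic HSP70 and of class A and B J proteins of the cytosol and nucleus lie higher. Those of HSP90 and the mitochondrial chaperonin overlap, and the sums were not tested.

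The cytosolic chaperonin TRiC, a double ring of 8 different subunits that folds actin and tubulin among others, had 3 of 9 tested genes called lower by edgeR, against 9.96% of all tested genes, and 4 by DESeq2, against 14.4%. At an unadjusted edgeR p under 0.05, 5 were lower, against 17.7% of all tested genes. The log2 fold changes of all 9, the testis-type paralog CCT6B included, were negative with a median of -0.20, as were 6549 of the 13279 over all tested genes, but 6 of the 9 were not called by edgeR. CCT2 had 269, 270.4 and 267 CPM in knockout, against 319.8, 314 and 327 CPM in wild type. The replicates were close in both groups and did not overlap (log2 fold change -0.25, SE 0.05, edgeR adjusted p = 0.0183). CCT4 had 273, 285 and 293 CPM in knockout, against 355, 318 and 373 CPM in wild type. CCT5 had 331, 335 and 340.3 CPM in knockout, against 384, 379.7 and 394 CPM in wild type. Both were without overlap, with log2 fold changes of -0.30 (SE 0.07, edgeR adjusted p = 0.0328) for CCT4 and -0.20 (SE 0.05, edgeR adjusted p = 0.0335) for CCT5.

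The subunits did not differ to an equal degree in these estimates. By the mean over both groups CCT7 was the most abundant per length, at 373.6 TPM, against 367 TPM for TCP1. In knockout alone TCP1 had the higher mean, 369 TPM against 366 TPM for CCT7. CCT7 had 353, 371 and 374 TPM in knockout, against 381, 379.8 and 384 TPM in wild type, and a log2 fold change of -0.12 (SE 0.06, edgeR adjusted p = 0.185). CCT8 was near the threshold (-0.20, SE 0.07, edgeR adjusted p = 0.0677), while TCP1, CCT3 and CCT6A lay between -0.04 and -0.03 (edgeR adjusted p = 0.733, 0.691 and 0.631). CCT6B, at most 2.24 CPM in any library, had a log2 fold change of -0.77 (SE 0.25, edgeR adjusted p = 0.0708) without overlap. TCP1 shares 397 exon bases with ACAT2 on the other strand, and the CCT6A pseudogenes CCT6P1 and CCT6P3 held 1655 and 2346 reads over all libraries. The sum over the complex was 1980.2, 2005 and 1933 TPM in knockout, against 2075, 2056 and 2092 TPM in wild type, without overlap.

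Neither HSP90 of the cytosol was called by edgeR or DESeq2, and 0 had an unadjusted p under 0.05. HSP90AB1, the constitutive form, had 681, 719 and 717 TPM in knockout, against 713, 748 and 716 TPM in wild type, with overlapping groups (log2 fold change -0.10, SE 0.06, edgeR adjusted p = 0.248). HSP90AA1, the inducible form, had 1139, 1216 and 936 CPM in knockout, against 1036, 1172 and 1091 CPM in wild type. Knockout held both its highest and its lowest library (log2 fold change -0.00, SE 0.10, edgeR adjusted p = 0.987). Among small heat shock proteins, holdases that bind unfolded clients without ATP, HSPB1 alone was tested. It had 26.4, 13.7 and 19.6 CPM in knockout, against 20.8, 15.8 and 25.8 CPM in wild type (log2 fold change -0.06, SE 0.26, edgeR adjusted p = 0.886). HSPB11, a protein of ciliary transport named with the family, had 16.8, 15.02 and 14.2 TPM in knockout and 14.05, 14.4 and 13.7 TPM in wild type (log2 fold change 0.06, edgeR adjusted p = 0.714).

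Of the remaining class C J proteins, which carry a J domain beside varied other domains, 18 were tested and 2 were called. DNAJC28 (ENSG00000177692.11, chr21:33485530-33491720, minus strand) had the largest log2 fold change of any tested member, 2.60 (SE 0.32, edgeR adjusted p = 0.00806). It rose to 0.784, 1.02 and 0.798 CPM in knockout, against 0.105, 0.171 and 0.142 CPM in wild type, without overlap. The level was low, with 21.1, 29.04 and 24.1 reads in knockout and 3.00, 5.00 and 4.00 reads in wild type. DNAJC21, a factor of ribosome maturation, had 62.1, 59.1 and 55.1 CPM in knockout, against 73.7, 66.3 and 76.1 CPM in wild type. That difference had the largest adjusted p of the called members (log2 fold change -0.29, SE 0.08, edgeR adjusted p = 0.0413). It shrank to -0.10 (edgeR adjusted p = 0.437) once the estimated mix of transcripts was taken into account by an effective length offset.

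DNAJC7, an adapter between HSP70 and HSP90 and the most abundant of that class, had 97.4, 100.01 and 93.2 TPM in knockout, against 105, 107 and 104 TPM in wild type. The groups did not overlap, but the gene was not called (log2 fold change -0.15, SE 0.05, edgeR adjusted p = 0.0849). HSPA14, of the complex that works at the ribosome, has 2 identifiers that share 460 exon bases. They had log2 fold changes of 0.14 and -0.01 (edgeR adjusted p = 0.331 and 0.971), and 0.07 with their reads summed (edgeR adjusted p = 0.601). The divergent HSPA12A, a distant relative of HSP70, reached at most 0.770 CPM (log2 fold change -0.36, edgeR adjusted p = 0.524). ATF3 knockout replicate 3 was the lowest of all 6 libraries for 24 of the 70 tested members, among them DNAJB14, with 75.8, 81.4 and 43.8 CPM in knockout, against 69.7, 68.8 and 65.6 CPM in wild type.

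In all, 51 tested members were not called. Their log2 fold changes ran from -0.77 to 0.83, 34 of them lay within 0.2 of 0, and 17 were without overlap, 6 higher and 11 lower. Over all tested genes, called or not, 43.8% were without overlap. That share was not counted for uncalled genes alone. The smallest adjusted p among the uncalled members was 0.0645, for DNAJC18. The other 14 members had too few reads to be tested and reached at most 0.366 CPM: HSPA1A, HSPA12B, HSPB2, HSPB3, HSPB6, HSPB7, HSPB8, HSPB9, CCT8L2, DNAJA4, DNAJB7, DNAJB8, DNAJB13 and DNAJC5G. HSPA12B, HSPB3, HSPB7, HSPB8, DNAJB7 and DNAJB8 were at 0 reads in every library. A count of 0 allows up to 3 reads, or between 0.1004 and 0.113 CPM, in a library, by counting error alone.

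Genes that regulate or assist the members were read from the same fit, in which 11.7% of all genes were higher and 9.96% lower. Of the 4 tested genes of heat shock factors and their binding protein, 0 were called by edgeR or DESeq2 and 0 had an unadjusted p under 0.05. HSF1 had 126.7 ± 3.24 CPM in knockout and 125 ± 3.79 CPM in wild type (SD, n = 3 each; log2 fold change 0.02, edgeR adjusted p = 0.858). Of 13 HSP90 cochaperones, 3 were higher and 0 lower by edgeR and by DESeq2, which called 15.4% of all genes higher and 14.4% lower. At an unadjusted edgeR p under 0.05 the counts were 5 and 1, against 19.9% and 17.7% of all genes. AHSA1, which stimulates the HSP90 ATPase, had 157, 175 and 165 CPM in knockout, against 120.5, 133 and 130.2 CPM in wild type. CHORDC1, an HSP90-binding protein, had 43.2, 64.9 and 37.3 CPM in knockout, against 23.2, 24.5 and 24.2 CPM in wild type. UNC45A, a myosin chaperone, had 79.9, 79.9 and 77.0 CPM in knockout, against 54.3, 61.9 and 58.1 CPM in wild type. None of the 3 overlapped between the groups, with log2 fold changes of 0.38, 1.02 and 0.44 for AHSA1, CHORDC1 and UNC45A (SE 0.07, 0.20 and 0.07, edgeR adjusted p = 0.0141, 0.0162 and 0.0104). UNC45A shares 1334 exon bases with HDDC3 on the other strand.

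Among 13 HSP70 exchange factors and adapters, 1 was higher and 2 were lower. BAG3, a stress-induced exchange factor that directs clients to autophagy, had 5.53, 4.28 and 4.16 CPM in knockout, against 1.29, 3.04 and 1.45 CPM in wild type. It did not overlap, but its call was lost without any 1 of 5 of the libraries (log2 fold change 1.27, SE 0.35, edgeR adjusted p = 0.0428). GRPEL2, an exchange factor of HSPA9 in the matrix, had 38.7, 29.5 and 34.2 CPM in knockout, against 64.8, 53.0 and 53.4 CPM in wild type. HSPBP1, a cytosolic exchange factor, had 43.1, 45.4 and 46.9 CPM in knockout, against 56.8, 53.9 and 58.2 CPM in wild type. Both lay lower in every knockout library, with log2 fold changes of -0.74 for GRPEL2 and -0.32 for HSPBP1 (SE 0.13 and 0.07, edgeR adjusted p = 0.0121 and 0.0195). HYOU1, the exchange factor of HSPA5, was not called (log2 fold change -0.45, SE 0.15, edgeR adjusted p = 0.0748) and was named after its value was seen.

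Among 9 chaperonin helpers, 3 were lower and 0 higher by edgeR and by DESeq2. At an unadjusted edgeR p under 0.05, 3 were lower and 1 higher, against 17.7% and 19.9% of all genes. VBP1 and PFDN4, subunits of prefoldin, which hands actin and tubulin to TRiC, had log2 fold changes of -0.31 and -0.51 (SE 0.08 and 0.13, edgeR adjusted p = 0.0328 and 0.0319). The phosducin-like PDCL3 was just past the threshold, at -0.33 (SE 0.10, edgeR adjusted p = 0.0496). Of 10 mitochondrial chaperones and proteases, 2 were higher and 2 lower. LONP1, the matrix protease, had 285, 255 and 282 CPM in knockout, against 525.0, 455 and 518 CPM in wild type, the groups lying far apart (log2 fold change -0.86, SE 0.08, edgeR adjusted p = 0.00776). TRAP1, the mitochondrial HSP90, was lower too (log2 fold change -0.35, SE 0.08, edgeR adjusted p = 0.0213) and was named after its value was seen. The proteases SPG7 and HTRA2, of the inner membrane and the space next to it, were higher by 0.51 and 0.53 on the log2 scale (SE 0.08 and 0.11, edgeR adjusted p = 0.0104 and 0.0192). Of 6 tested chaperones outside the symbol rule, the collagen chaperone SERPINH1 and the auxilin relative GAK were higher, by 0.64 and 0.30 (SE 0.12 and 0.06, edgeR adjusted p = 0.0145 and 0.019). NACA, of the nascent chain complex, was lower, at -0.27 (SE 0.08, edgeR adjusted p = 0.0443), and CRYAB was at 0 in every library.

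The position of wild-type replicate 2 was shared by all called members: it was the wild-type library nearest to the knockout mean for 19 of 19, against 2003 of 2875 (69.7%) of all called genes. For HSPA9 it had 722 CPM beside 848 and 839.9 CPM in the other wild-type libraries, and for DNAJA1 288 CPM beside 224 and 245 CPM. Without that library 17 of the 19 members kept their call, CCT5 and DNAJC15 losing theirs (edgeR adjusted p between 0.0534 and 0.0669). All members together summed to 7858, 8085 and 7599 TPM in knockout, against 7836, 7789 and 7853 TPM in wild type, with overlapping groups.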

How the data were processed

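Polyadenylated RNA of 6 EoL-1 libraries, 3 ATF3 knockout and 3 wild type, was prepared with the Illumina Stranded mRNA Prep kit, per the labels. The authors deposited, per the file headers, Salmon tables of estimated counts and TPM for 177456 transcripts. The submitters' processing notes list Salmon 1.6.0, FastQC 0.11.9 and hg38. Neither the transcriptome release nor the library type and use of strand is given in the sources used here, and reads of a gene and of an antisense neighbour may therefore be mixed. The deposited TPM values, scaled by the authors to a fixed total per library, were used as levels without a test. The design text speaks of a knockdown; groups follow the sample labels.

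Transcripts were joined to genes with GENCODE 29 by identifier without version, and 7621 transcripts outside its primary assembly annotation by its table of gene names (2.71 to 3.00% of the reads). This step places the HSPA1A and HSPA1B reads and was added after the data were seen; 2808 transcripts without a gene (0.767 to 0.872%) were left out. Gene sums were rounded to whole numbers and tested with edgeR 4.0.16 (R 4.3.3; glmQLFit and glmQLFTest on the group alone, TMM factors, filterByExpr with a minimum of 10 reads, Benjamini-Hochberg adjustment over all 13279 tested genes at 0.05). The fit had 4 residual degrees of freedom and a common biological variation of 15.9% (coefficient of variation). TMM factors also scale the CPM, fold changes are knockout over wild type, and coordinates are those of GENCODE 29 on GRCh38, counted from 1; promoters are RefSeq's on GRCh38.p14. The exact permutation test of ATF3 (two-sided, 3 against 3) gave p = 0.1, the smallest that this design allows.

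Values are given for called members without overlap between the groups and for the most abundant member of each class, and for up to 3 called genes of each partner list with the smallest p; others are given by range and count, or are named after their values were seen. The members, classes and partner lists were chosen with earlier results of these data known. The pipeline was tested on simulated data. Alternatives changed the normalization, the test (DESeq2 1.42.0, limma-voom 3.58.1), the filter, length and GC offsets, the annotation, a replicate block and each library in turn.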

Additional observations from a re-analysis of the deposited data

How the results depend on the processing

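All 19 called members and ATF3 kept their sign wherever they were tested, but the balance of higher and lower calls did not hold. Against 1553 genes higher and 1322 lower in the reported fit, upper-quartile factors gave 1415 and 1442, removal of the GC trend 1426 and 1426, and leaving out knockout replicate 3 1464 and 1479. Against 9 members higher and 10 lower, removal of the GC trend gave 13 and 10, and leaving out wild-type replicate 2 gave 9 and 8. With an effective length offset, 749 genes were higher and 689 lower, and 5 members were higher and 6 lower. Leaving out a library each in turn gave between 173 and 1464 genes higher, between 116 and 1479 lower, between 1 and 9 members higher and between 1 and 8 lower. In those refits the log2 fold change of ATF3 ranged from -2.03 to -1.58, and without wild-type replicate 1 its adjusted p was 0.051. That library mattered most: without it the smallest adjusted p of any gene was 0.0487, while 3578 genes had an unadjusted p under 0.05. Other normalizations kept all 19 calls, limma-voom likewise, and DESeq2 all 18 for which it gave an adjusted p; DESeq2 called 14 members lower, CCT8, DNAJC7, DNAJC9 and HSPD1 added, and HSPA8 higher. Without a low-count filter 4 calls were lost (CCT5, DNAJA3, DNAJB6 and DNAJC21), and with the GC trend removed 2 (CCT4 and DNAJC21). The effective length offset lost 8 (CCT4, CCT5, DNAJB5, DNAJB6, DNAJC15, DNAJC16, DNAJC21 and HSPA6), with edgeR adjusted p between 0.0536 and 0.437. DNAJC28 was not tested at a mean of at least 1 CPM, and DESeq2 gave it no adjusted p. Summed with HSPA7, HSPA6 lost its call (adjusted p = 0.094), and on the primary assembly annotation alone 8 members were higher and 9 lower; both alternatives, and the HSPA14 sum, were chosen after seeing the data. The causes of these changes were not tested.

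Libraries with the same replicate number did not deviate together throughout (correlations of -0.069, 0.144 and 0.270 for numbers 1, 2 and 3, and 2 of 3 numbers correlated best with their own), so the numbers were not taken as pairs. With the replicate number as a block, 1313 genes were higher and 1142 lower, 7 members were higher and 7 lower, and ATF3 had a log2 fold change of -1.77.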
